A study of Mus musculus with 6 samples.

Results

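The Wnt, Bmp and Fgf ligand genes of the mouse were followed in germline stem (GS) cells by reduced representation bisulfite sequencing (RRBS), a method that reads DNA methylation at CpG sites in CpG-rich fragments of the genome. The members were chosen by name: every gene symbol made of Wnt, Bmp or Fgf followed by a number, with a letter a or b allowed after the number of a Wnt or Bmp gene. The rule found 52 genes among the 31751 genes named in the deposited table, made up of 19 Wnt, 11 Bmp and 22 Fgf genes. Of these, 51 had at least 1 CpG site covered by 10 or more reads in all 6 samples, compared with 26646 of all genes. The 51 genes held 2782 of the 681804 commonly covered sites. Only Bmp15, an oocyte ligand, had none.

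The GS cell culture is a culture of spermatogonia, and holds among them the stem cells from which spermatogenesis starts. All samples carried the DBA/Tg14(act-EGFP-OsbY01) genotype, in which a green fluorescent protein is driven by an actin promoter, and were grown on mouse embryonic fibroblast feeders in medium with GDNF and FGF2. The 3 Space samples were frozen and kept for 6 months on the International Space Station (Space GS cells), and the 3 Ground samples were frozen for the same time on Earth (Ground GS cells). The study states that the cells for RRBS were cultured and passaged after thawing, so the levels are those of regrown cultures. The comparison asked whether storage in orbit changed DNA methylation. The age of the mice that gave the cells was not in the sources used here, and nothing in the labels stated that replicates came from separate cultures or animals, so the p-values measure the spread between these samples, which may be technical.

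Wnt proteins are lipid-modified secreted ligands that bind Frizzled receptors and control beta-catenin and cell polarity pathways. Bmp proteins are secreted members of the TGF-beta superfamily that signal through serine/threonine kinase receptors and Smad proteins. Most Fgf proteins bind receptor tyrosine kinases, whereas Fgf11, Fgf12, Fgf13 and Fgf14 stay inside the cell, and Fgf15, Fgf21 and Fgf23 act as hormones. Among ligands tied to the germline, Fgf2 supports spermatogonial stem cells in culture, Fgf9 is a sex-determination factor, and Bmp4 and Bmp8b are needed to form germ cells. CpG islands at the transcription start sites (TSSs) of such developmental genes are unmethylated in most cells, whether or not the gene is transcribed.

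Each CpG site was assigned to the gene with the nearest TSS, and sites were placed within 1 kb, from 1 to 5 kb, or over 5 kb from it. A gene's DNA methylation level in a sample was the percentage of methylated reads among all reads summed over its sites of that class. Sites over 5 kb can lie in or near another gene, and whether a site was exonic or intronic is not analysed here. Total reads over commonly covered sites ran from 28535973 to 33743845 per sample, and the median coverage of ligand sites from 27 to 32 reads. As a check of the label, 6 genes known for germline expression and for promoters that are methylated in most somatic cells (Dazl, Ddx4, Mael, Sycp3, Tdrd1 and Asz1) had levels of 0.740% to 3.23% within 1 kb; none was highly methylated.

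The sequences upstream of Fgf21, Fgf6 and Fgf2 are shown for 2 reasons. Fgf21 and Fgf6 were the Fgf genes with a mean level over 6 samples above 5% near the TSS. For Fgf21 this mean rested mainly on Space samples 1 and 2, and its Ground mean was 4.03%. Fgf2, the ligand supplied in the medium, is a CpG-rich gene with a low level. Each is the 250 bases before the start in RefSeq, read 5′ to 3′ along the gene, in the GRCm38.p6 build, with CG dinucleotides in capitals. They lie at chr7:45615491-45615740 (minus strand) for Fgf21, chr6:127015292-127015541 (plus strand) for Fgf6 and chr3:37348403-37348652 (plus strand) for Fgf2.
Fgf21: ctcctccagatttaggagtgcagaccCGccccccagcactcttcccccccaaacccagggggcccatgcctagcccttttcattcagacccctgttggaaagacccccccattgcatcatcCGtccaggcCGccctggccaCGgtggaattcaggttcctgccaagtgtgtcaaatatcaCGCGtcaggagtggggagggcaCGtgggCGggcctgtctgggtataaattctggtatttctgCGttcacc
Fgf6: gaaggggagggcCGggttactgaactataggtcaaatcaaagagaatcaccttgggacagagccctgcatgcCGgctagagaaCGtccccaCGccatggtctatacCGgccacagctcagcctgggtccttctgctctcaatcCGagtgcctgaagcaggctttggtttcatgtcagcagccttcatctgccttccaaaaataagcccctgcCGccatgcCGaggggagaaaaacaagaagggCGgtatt
Fgf2: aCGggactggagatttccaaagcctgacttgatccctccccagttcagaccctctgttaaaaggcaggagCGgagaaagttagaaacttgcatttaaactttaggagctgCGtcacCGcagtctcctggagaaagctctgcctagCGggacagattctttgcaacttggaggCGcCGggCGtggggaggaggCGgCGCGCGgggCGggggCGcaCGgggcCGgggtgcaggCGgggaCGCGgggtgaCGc
These 250 bases held 9, 9 and 20 CG dinucleotides, respectively. The methylation calls were made in the mm39 build, so no call was placed on these letters, and the 6 called Fgf21 sites lie downstream of its TSS, outside the stretch shown.

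The dinucleotide CG was then counted in the RefSeq promoters, which run from 250 bases before to 50 bases after a start and in which CG reads the same on both strands. Of the 52 genes, 38 had such an entry, with 47 promoters in all. The median was 22 CG per promoter for ligand genes and 7 over all 32851 promoters. A count of 10 or fewer was found in 29.8% of ligand promoters and in 58.6% of all promoters. Fgf21 had 9 CG and Fgf6 had 10, both in the lower range of the ligand genes, which ran from 2 for Bmp15 to 58 for Wnt9a. However, a low count did not go with a raised level in every gene: among the 23 single-promoter genes under 5% methylation, the CG count ran from 3 for Bmp10, measured at 1 site, to 58.

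Near their start sites, ligand genes were almost without methylation in both groups. Within 1 kb, 43 ligand genes had 1456 covered sites, and 40 of the 43 had a mean level under 5%. The median over ligand genes was 1.94%, beside 1.89% over all 16245 genes with such sites, of which 87.9% were under 5%. None of the ligand genes exceeded 80%, compared with 5.47% of all genes. That share was 1.87% among the 14373 genes with 3 or more sites. Of these genes 93.5% were under 5%, beside 92.7% of the 41 ligand genes with 3 or more sites. The lowest level was 0.670% at Wnt9a with 57 sites, and the 26 ligand genes with 20 or more sites all lay between 0.670% and 2.64%. In 9 genes no site within 1 kb passed the coverage minimum: Wnt8b, Wnt16, Bmp4, Bmp5, Bmp15, Fgf4, Fgf7, Fgf10 and Fgf23. Bmp4 had 14 sites there in the table, of which the best covered had only 5 reads in its shallowest sample, and Fgf23 had 8 sites, with 6 reads at best.

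**Figure D1:**
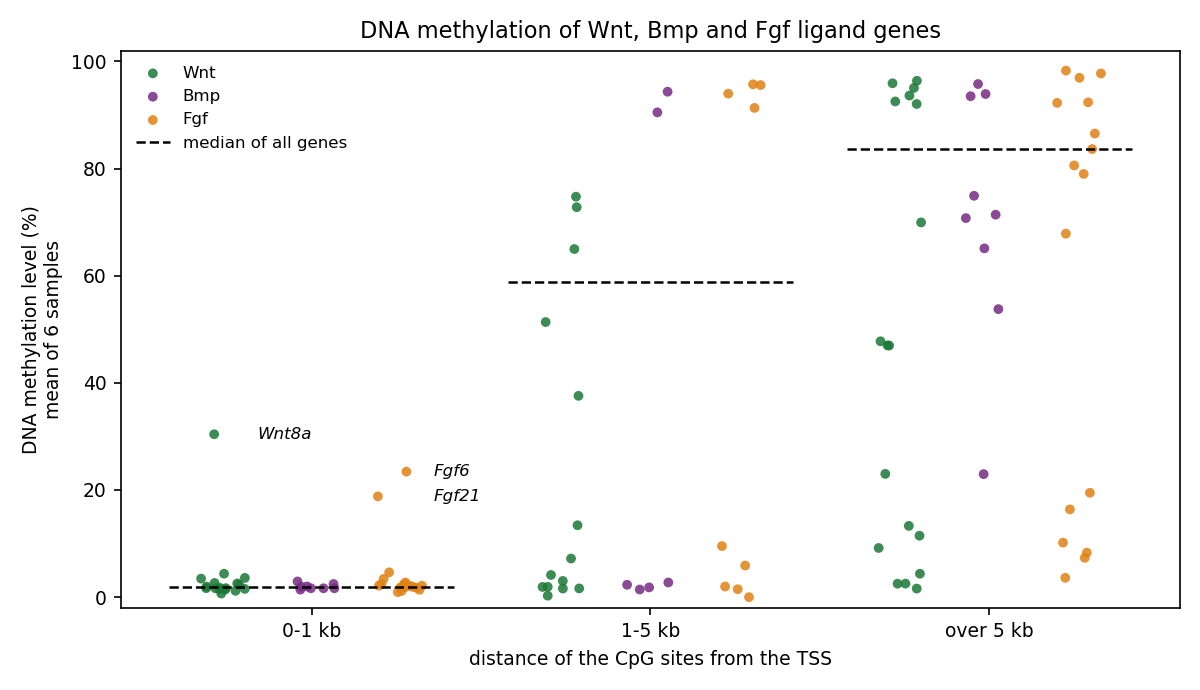
Mean DNA methylation level over 6 samples (y axis, %) of each ligand gene (points, coloured by family) in 3 classes of distance from the TSS (x axis), with the median of all genes as a dashed line. Within 1 kb, 40 of 43 genes lie under 5% and Wnt8a, Fgf6 and Fgf21 stand above them, whereas the other classes span nearly the whole scale.

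Among the secreted Fgf ligands known from spermatogonial culture and the testis, Fgf2 had 4.19%, 1.95% and 1.88% in the 3 Space samples and 1.24%, 1.001% and 0.905% in the 3 Ground samples, over 28 sites. All Space values were above all Ground values, although every value was under 5%. Fgf8 (23 sites) had 1.53% ± 0.34 in Space and 1.95% ± 0.41 in Ground GS cells (SD, n = 3 each), and Fgf9 (12 sites) had 2.00% ± 1.83 and 2.96% ± 0.53. Thus, the values of Fgf8 and Fgf9 overlapped between the groups.

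Germ cell and niche ligands of the other families were also low. Bmp8b, measured at 74 sites, had 2.75% ± 2.12 in Space and 2.15% ± 0.86 in Ground GS cells (SD, n = 3 each). For Wnt3a, a canonical Wnt ligand, the levels were 1.80% ± 0.35 and 1.22% ± 1.16 over 50 sites, and for Wnt6 they were 1.17% ± 0.42 and 1.68% ± 1.14 over 19 sites. Wnt5a, a ligand of the polarity pathway, had 4.10% ± 2.75 and 2.80% ± 0.42 over 19 sites, with 1 Space sample at 7.27% and the other 5 samples between 2.25% and 3.09%. Among all Bmp genes measured within 1 kb, the mean level ran from 1.39% to 2.92%, a narrower range than in either other family.

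Wnt8a, Fgf6 and Fgf21 had a mean level over 6 samples above 5% near the TSS. Wnt8a, a ligand of early mesoderm, had 31.3%, 22.1% and 26.9% in Space and 44.1%, 29.6% and 28.4% in Ground GS cells over 4 sites from 24 to 182 bp downstream of the TSS. The groups overlapped, and 3 of the 4 sites had only 11 to 18 reads per sample. Fgf6, a ligand known from skeletal muscle, had 33.5%, 19.7% and 24.9% in Space and 21.03%, 20.1% and 21.4% in Ground GS cells over 6 sites with 32 to 83 reads each. At Fgf6, the 2 sites 210 and 202 bp upstream had mean levels of 31.2% and 40.001%, higher than the 14.8% to 16.9% at the 4 sites 49 to 87 bp downstream. 

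Fgf21, a hormone of fasting metabolism that acts with the coreceptor beta-Klotho, had 42.3%, 53.7% and 4.76% in the 3 Space samples and 8.97%, 3.12% and 0% in the 3 Ground samples. Space samples 1 and 2 were above every Ground sample, whereas Space sample 3 lay between the Ground values. The means were 33.6% ± 25.6 in Space and 4.03% ± 4.56 in Ground GS cells (SD, n = 3 each), a difference of 29.6 percentage points. A two-sided exact permutation test over the samples gave p = 0.2, where 3 against 3 samples cannot give less than 0.1. The test across all genes gave an unadjusted p = 0.00177 and a Benjamini-Hochberg adjusted p = 0.912, so the difference did not pass the threshold of 0.05. Without Space sample 2 the difference was 19.5 points.

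The gene (ENSMUSG00000030827) has its TSS at position 45264914 on the minus strand of chromosome 7 in mm39, and its 6 sites lie from 45264685 to 45264772, which is 142 to 229 bp downstream of the TSS. All 6 sites had the same coverage within a sample, namely 13, 18 and 14 reads in Space samples 1 to 3 and 26, 16 and 17 reads in Ground samples 1 to 3. The 6 sites within 87 bp therefore were not independent measurements. In Space sample 1, 6 of 13 reads were methylated at each of the 5 sites nearest to the TSS, or 46.2% with an exact (Clopper-Pearson) 95% interval of 19.2% to 74.9%. In Space sample 2, between 7 and 12 of 18 reads were methylated at each site. By contrast, Ground sample 3 had 0 of 17 reads at every site, which allows a level of up to 17.6% when 3 counts are taken as the limit that a count of 0 allows (the exact interval ends at 19.5%). These intervals and limits cover counting error only, since RRBS reads without molecular identifiers are not independent molecules.

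The site farthest from the TSS behaved differently in sample 1 of each group. At 229 bp, 8 of 26 reads were methylated in Ground sample 1 (30.8%), above the 3 of 13 in Space sample 1 (23.1%). At the 5 other sites Ground sample 1 had no more than 2 methylated reads of 26. Another Fgf21 site, 2242 bp downstream, was not used because Space sample 2 had 7 reads there, but its levels of 63.6% to 85.7% were high in all 6 samples.

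**Figure D2:**
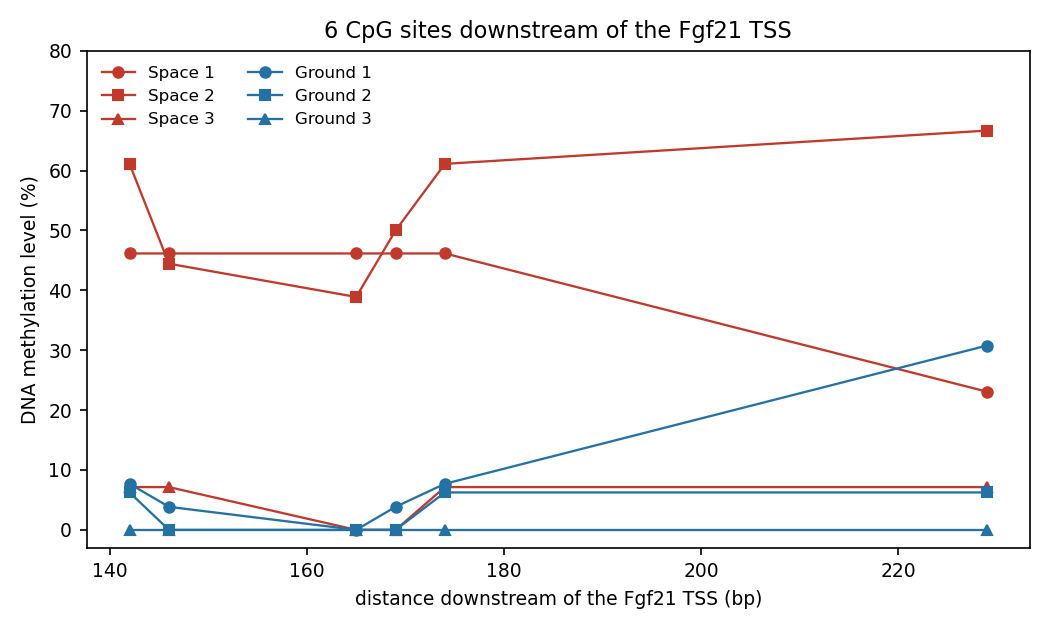
DNA methylation level (y axis, %) at the 6 Fgf21 CpG sites by distance downstream of the TSS (x axis, bp), with a line per sample (3 Space in red, 3 Ground in blue; no error bars). Space 1 and Space 2 lie between 23.1% and 66.7%, Space 3 does not exceed 7.14%, and Ground 1 reaches 30.8% at the site 229 bp downstream.

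Sites of the genes next to Fgf21 were compared in the same way. Within 10 kb of the Fgf21 TSS, Fut1, a fucosyltransferase gene, had 11 sites within 1 kb of its own TSS, with 5.33%, 1.52% and 0.402% in Space and 1.88%, 0% and 1.28% in Ground GS cells. Another 6 Fut1 sites 1 to 5 kb from its TSS had 95.3% ± 1.3 and 95.6% ± 1.8, and the single covered site of Izumo1, which encodes the sperm protein for egg fusion, had 92.4% ± 6.7 and 90.1% ± 4.3 (SD, n = 3 each). None of these neighbouring values separated the groups.

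Set beside its family, Fgf21 was apart from the other Fgf genes. The largest difference of any other ligand gene with 3 or more sites within 1 kb was 7.28 points, at Wnt8a, and the difference of Fgf21 was the largest in size among the 14361 genes tested in that class. Only 4 of these genes exceeded 20 points. Ordered by unadjusted p, Fgf21 was at place 20. Since Fgf21 was singled out with earlier results of these data known, these places are a description.

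The mean over the 18 Fgf genes measured within 1 kb was 5.29% ± 1.56 in Space and 3.25% ± 0.42 in Ground GS cells (SD over 3 samples each). For the 17 other than Fgf21 the means were 3.63% ± 0.50 and 3.20% ± 0.46. Over all 43 ligand genes the difference between the group means was 0.70 points, and without Fgf21 it was 0.02 points. The same difference over all genes was 0.11 points. Hence, nearly all of the difference in the ligand mean was carried by 1 gene.

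Of the other hormones, Fgf15, the intestinal regulator of bile acid synthesis, had 1.29%, 1.24% and 1.39% in Space and 0.832%, 1.77% and 4.19% in Ground GS cells over 20 sites. Its groups overlapped. Fgf23, the bone hormone of phosphate balance, could be read only over 5 kb from its TSS, where 16 sites gave 11.2% ± 2.1 and 9.18% ± 1.24 (SD, n = 3 each). The intracellular Fgf genes Fgf11, Fgf12 and Fgf13 were at 1.15%, 4.63% and 3.41% on average within 1 kb.

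**Figure D3:**
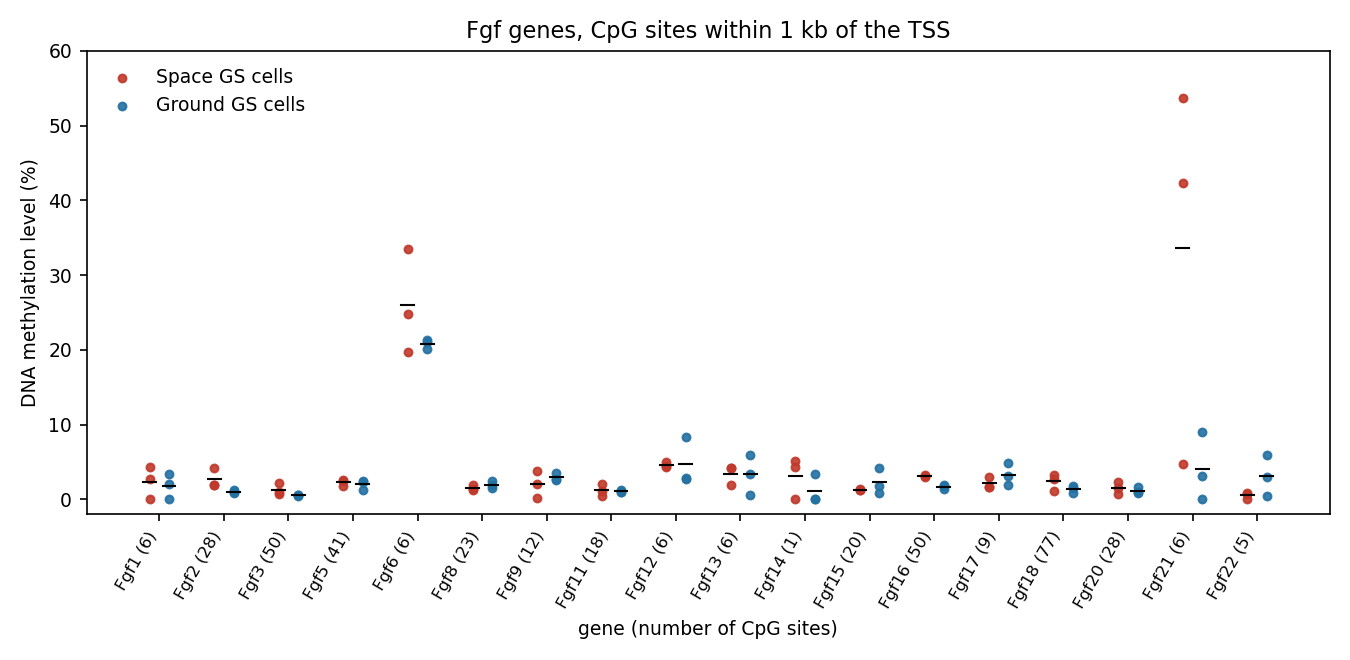
DNA methylation level (y axis, %) of 18 Fgf genes, from sites at most 1 kb away from the TSS (x axis, number of sites in brackets); points are the 3 Space (red) and 3 Ground (blue) samples and short lines their means. All genes except Fgf6 and Fgf21 stay under 10% in every sample, and only Fgf21 has Space samples above 40%.

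Across genes, no ligand gene passed the test within 1 kb. None of the 14361 genes tested did (0 called, 0%), with a smallest adjusted p of 0.912, and 5.31% of them had an unadjusted p under 0.05. Among the 41 ligand genes tested, 3 had an unadjusted p under 0.05: Fgf21, Fgf2 and Wnt3. Groups did not overlap in 4 of the 41, namely Fgf2, Fgf3 and Fgf16 with Space above Ground and Wnt3 with Space below, against 9.55% of all genes tested. Both counts are close to the background.

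Wnt3, a ligand of the primitive streak, had 1.65%, 1.77% and 1.84% in Space and 3.02%, 3.35% and 2.48% in Ground GS cells over 46 sites (difference -1.20 points, unadjusted p = 0.0498, adjusted p = 0.928, quasi-binomial test across genes). At 34 of the 46 sites the Space mean was below the Ground mean, and at 8 it was above. Fgf2 differed by 1.63 points (unadjusted p = 0.0281, adjusted p = 0.912, same test), and by 0.87 points without Space sample 1 (unadjusted p = 0.145). Fgf16 and Fgf3, secreted ligands of the Fgf9 and Fgf7 subfamilies, differed by 1.45 and 0.76 points.

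Other named differences within 1 kb came with overlapping groups. Wnt8a had the largest difference of the Wnt family, with -7.28 points (-2.26 without Ground sample 1), followed by Wnt1 with 1.42 and Wnt5a with 1.30 points. Without Space sample 1 the difference of Wnt5a was -0.28 points, and that of Wnt1 ran from 0.64 to 2.40 points when a sample was left out. In the Bmp family, whose largest difference was at Bmp7, the values were -0.83 for Bmp7, -0.64 for Bmp8a and 0.61 points for Bmp8b. In the Fgf family, Fgf6 with 5.17 and Fgf22 with -2.62 points followed Fgf21. Without Space sample 1 the difference of Fgf6 was 1.42 points, and without Ground sample 3 that of Fgf22 was -1.2 points. Over the 41 ligand genes with 3 or more sites, 21 had a higher Space mean and 20 a lower one, and the median difference was 0.00089 points.

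**Figure D4:**
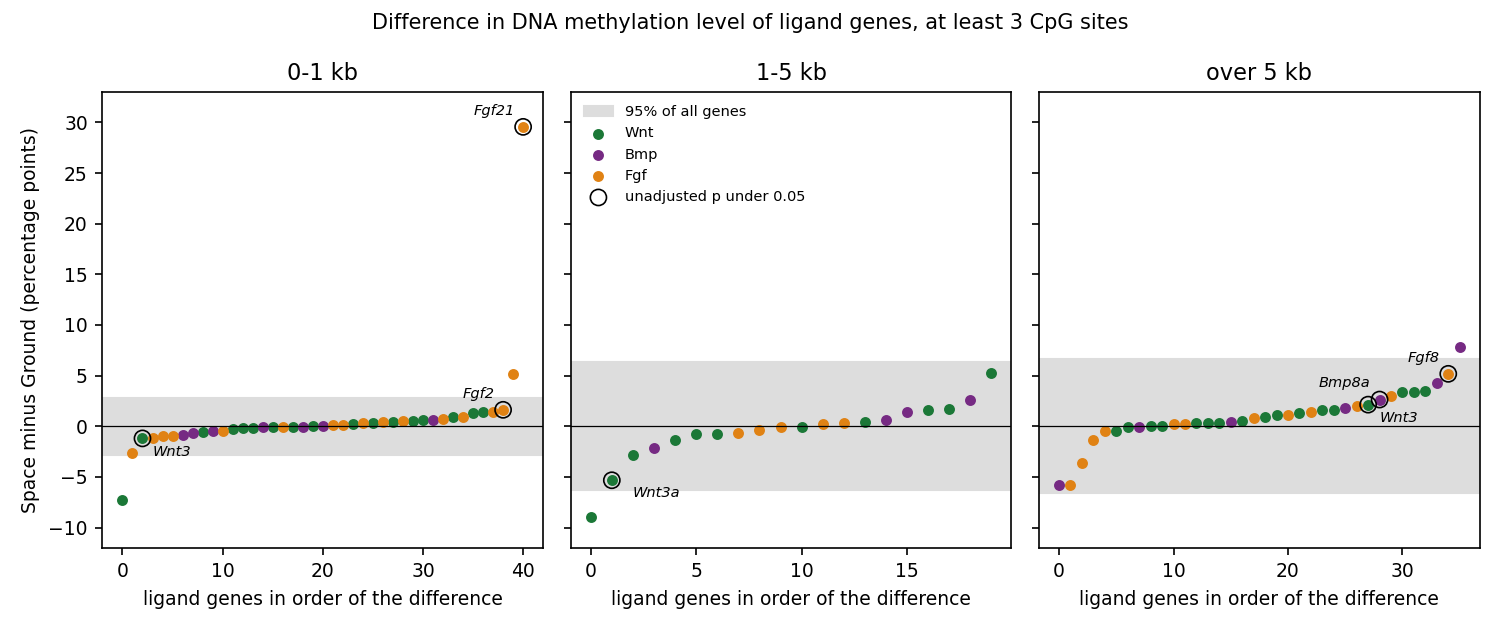
Difference in DNA methylation level between Space and Ground GS cells (y axis, percentage points) of each ligand gene with at least 3 CpG sites, in order of the difference (x axis), in the 3 distance classes. The grey band holds 95% of all genes, black rings mark an unadjusted p under 0.05, and Fgf21 lies at 29.6 points, far outside the band within 1 kb.

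Methylation of the ligand sites stayed near 2% up to 1 kb from the TSS and was higher farther away, at lower levels than over all sites. Averaged over sites, ligand sites had 2.14% within 250 bp, 1.82% at 250 to 500 bp, 2.07% at 500 to 1000 bp, 5.85% at 1 to 2 kb, 19.9% at 2 to 5 kb, 28.1% at 5 to 10 kb, 28.9% at 10 to 50 kb and 31.9% over 50 kb. In the same order, the sites of all genes had 2.13%, 2.31%, 3.52%, 11.2%, 29.6%, 40.8%, 52.4% and 61.0%. Space and Ground means of ligand sites were 28.07% ± 0.18 and 28.10% ± 0.30 at 5 to 10 kb (SD, n = 3 each). At 10 to 50 kb they were 29.37% ± 0.26 and 28.34% ± 0.37, and all 3 Space values lay above the Ground values. The means over all sites there were 52.55% ± 0.19 in Space and 52.34% ± 0.34 in Ground GS cells, with overlapping values. In the other distance classes the ligand values of the groups overlapped, so the class at 10 to 50 kb is a description. The levels were not tested against all genes, since the sites of a gene are not independent. The 328 ligand sites over 50 kb came from 14 genes. They included stretches of 65, 63 and 14 sites in Fgf12 and of 54 sites in Bmp8a, all with levels under 5%. With equal weight per gene, ligand means over 5 kb were 56.93% in Space and 56.00% in Ground, beside 69.22% and 68.88% over all genes.

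**Figure D5:**
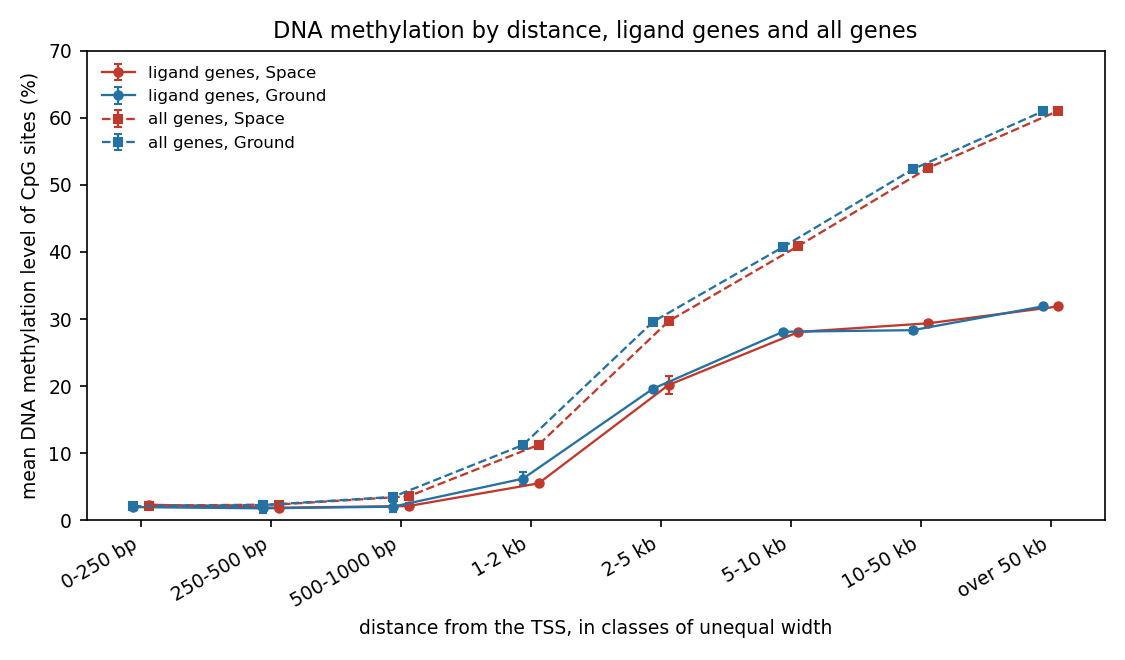
Mean DNA methylation level of CpG sites (y axis, %) by distance from the TSS (x axis, classes of unequal width) for ligand genes (solid) and all genes (dashed), in Space (red) and Ground (blue) GS cells; error bars are the SD over 3 samples. Both start near 2%, and over 50 kb the ligand sites (328 sites of 14 genes) reach 31.9% and all sites 61.0%.

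From 1 to 5 kb, 29 ligand genes with 344 sites spread over nearly the whole scale. Their mean was 31.69% ± 0.82 in Space and 32.12% ± 0.76 in Ground GS cells (SD, n = 3 each), beside 52.11% and 51.94% over all genes. Of the 29 genes, 14 were under 5%, 9 between 5% and 80%, and 6 over 80%. Of the 14 Wnt genes among them, 7 were under 5% and 7 between. The low genes with 20 or more sites were Bmp2, Fgf3, Fgf9, Wnt1, Wnt5a, Wnt10b and Wnt11, all at 1.47% to 4.14%. Among genes with 3 or more sites the highest levels were at Fgf7, a growth factor for epithelia, with 95.6%, Fgf22 with 94.0% and Bmp8a with 90.5%. Among the intermediate genes, Wnt2 and Wnt10a had 65.0% and 37.6%.

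In that class 20 ligand genes were tested, and none of the 5544 genes passed (0 called, 0%; smallest adjusted p = 0.489). Wnt3a alone had an unadjusted p under 0.05 and groups that did not overlap, against 5.54% and 9.52% of all genes, respectively. Its levels over 10 sites were 4.69%, 4.95% and 3.97% in Space and 7.89%, 16.2% and 5.51% in Ground GS cells (difference -5.33 points, unadjusted p = 0.0303, adjusted p = 0.847, quasi-binomial test across genes). Ground sample 2 was far above the rest, and without it the difference was -2.16 points. With each site given the same weight the difference was -3.11 points and the groups overlapped, since Ground sample 3 had 6.84% and Space sample 1 had 10.6%. Among the 20 ligand genes tested in the class, Wnt2 had the largest difference with -8.999 points (-5.15 without Space sample 3). Its levels were 66.2%, 62.5% and 52.8% in Space and 70.8%, 65% and 72.6% in Ground GS cells.

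Other named genes of this class differed less. The values were 5.23 points at Wnt10a (0.57 without Space sample 1), 2.59 at Bmp8a (0.66 without Ground sample 3), -2.14 at Bmp6 (-0.40 without Ground sample 2), 1.46 at Bmp2 (0.51 without Space sample 1), -0.71 at Fgf7, 0.35 at Fgf8 and -0.33 at Fgf22. None of these genes had groups that did not overlap. At the lower end, Fgf9 had 1.58% ± 0.55 and 1.36% ± 0.15 over 40 sites, and Wnt5a had 1.56% ± 0.43 and 2.28% ± 1.37 over 25 sites (SD, n = 3 each, Space and Ground).

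Over 5 kb from the TSS, levels spread from 1.60% at Wnt2b to 98.3% at Fgf7, and went with how many covered sites a gene had. The 14 ligand genes with 20 or more sites had a median level of 12.4%, and 10 of them were under 20%. The 22 genes with 3 to 19 sites had a median of 79.8%, and the 7 genes with 1 or 2 sites 93.5%. Over all genes the corresponding medians were 41.3%, 81.8% and 95.3%. Spearman's rho between site number and level was -0.63 over the 43 ligand genes and -0.43 over 19301 genes, given as a description since RRBS samples CpG-rich sequence and genes are not replicates. Among genes with 3 or more sites, the highest levels after Fgf7 were at Wnt7a with 96.4% and Wnt9b with 95.9%.

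Dense, unmethylated runs of sites far from the TSS held many of the low values. Runs of at least 10 ligand sites with gaps of at most 100 bp were found 19 times, in 13 genes, and 18 of the 19 had a mean level under 5%. Fgf12, which encodes an intracellular Fgf that binds sodium channels, had runs of 65, 63 and 14 sites between 187898 and 307923 bp downstream of its TSS, at 1.42%, 1.61% and 2.11%. These distances were all counted from the Fgf12 TSS at position 28571820 in mm39, so a run far from it can lie at another promoter of the gene. RefSeq gives Fgf12 4 promoters, with entries that start at 28753194, 28564902, 28564446 and 28446026 on chromosome 16 in GRCm38.p6. No coordinates were converted between the builds, so runs and promoters were not matched. Bmp8a had a run of 54 sites 68305 to 69146 bp upstream at 2.16%, Fgf4 had runs of 38 and 21 sites at 0.837% and 2.34%, and Wnt3 had runs of 33 and 24 sites at 1.995% and 0.974%. Groups did not overlap in 2 of the 19 runs, 1 in each direction, beside 9.54% of all genes tested over 5 kb. Runs of other genes were not counted, so these 2 are a description. The first was the Wnt3 run of 33 sites, with 2.77% ± 1.04 in Space and 1.22% ± 0.53 in Ground GS cells. The other was the Bmp8a run, with 1.77% ± 0.24 and 2.56% ± 0.18 (SD, n = 3 each). The single run above 5% was in Wnt4, a ligand needed for ovary and kidney development, with 18.3% over 30 sites. In that run the level was 14.8%, 25.1% and 16.6% in Space and 12.7%, 22.4% and 18.1% in Ground GS cells.

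The ligand mean in the class was 56.93% ± 0.46 in Space and 56.00% ± 0.40 in Ground GS cells (SD, n = 3 each), a difference of 0.93 points, beside 0.33 points over all genes. Among the 36 ligand genes with 3 or more sites, 27 had a higher Space mean, or 75.0%, compared with 55.0% of all such genes. Members share libraries, so this count is a description. Of the 17 Wnt genes 14 were higher, of the 7 Bmp genes 5, and of the 12 Fgf genes 8.

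None of the 14244 genes passed the test in this class (0 called, 0%; smallest adjusted p = 0.539). Unadjusted p-values under 0.05 were found in 5.24% of all genes and in 3 of 36 ligand genes, namely Wnt3, Fgf8 and Bmp8a, all with a higher Space level. Groups did not overlap in 9.54% of all genes and in 4 ligand genes, with Wnt3 and Fgf8 higher and Bmp1 and Fgf15 lower in Space. Wnt3 over 76 sites had 12.5%, 12.3% and 12.8% in Space and 10.8%, 10.3% and 10.02% in Ground GS cells (difference 2.14 points, unadjusted p = 0.0037, adjusted p = 0.895, quasi-binomial test across genes). This is the opposite direction to its level within 1 kb.

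Fgf8, a morphogen of limb and brain, had 25.6%, 20% and 20.5% in Space and 19.2%, 13.6% and 17.9% in Ground GS cells over 33 sites, a difference of 5.18 points (unadjusted p = 0.0153, adjusted p = 0.929, same test). Without Space sample 1 the difference was 3.39 points. In addition, 23 of the 33 sites had a lower mean in Space than in Ground, and the mean with equal weight per site differed by 1.48 points. The 10 sites above 10% took 37.8%, 27.5% and 31.5% of the Fgf8 reads in Space and 26.5%, 25.1% and 27.2% in Ground GS cells. This share was higher in every Space sample than in every Ground sample, though Space sample 2 was barely above Ground sample 3. Whether it accounts for the difference was not tested.

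At Bmp8a, the 74 sites gave 25.4%, 22.4% and 25.1% in Space and 22.4%, 22.5% and 20.05% in Ground GS cells, a difference of 2.64 points (unadjusted p = 0.0209, adjusted p = 0.929, same test). With each site given the same weight the direction turned, to -0.91 points, and 49 of the 74 sites were lower in Space. The 20 sites over 80% took 24.99%, 21.6% and 24.4% of the reads in Space and 20.94%, 20.95% and 18.6% in Ground GS cells. In the unmethylated run of 54 sites of Bmp8a the Space values of 1.66%, 2.04% and 1.61% were all below the Ground values of 2.40%, 2.75% and 2.51%. For Wnt3 the difference with equal weights was 1.27 points, in the same direction.

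Bmp1, which encodes a procollagen protease despite its name, had 51.4%, 46.7% and 54.4% in Space and 58.5%, 54.8% and 56.8% in Ground GS cells over 11 sites, and all Space values were below all Ground values. Fgf15 had 74.0%, 79.3% and 75.0% in Space and 80.9%, 82.8% and 82.1% in Ground GS cells over 5 sites. The unadjusted p-values were 0.0792 for Bmp1 and 0.141 for Fgf15 (adjusted p = 0.929 and 0.946, same test), and the Bmp1 difference was -3.76 instead of -5.82 points without Space sample 2. Other named differences were 7.81 points at Bmp10, a heart ligand, 4.31 at Bmp2, -3.67 at Fgf14, 3.49 at Wnt7b, and 3.39 at both Wnt5b and Wnt9a, all with overlapping groups. When a sample was left out, Bmp10 ran from 3.64 (without Ground sample 2) to 12.5 points (without Space sample 2), Bmp2 from 1.01 (without Space sample 3) to 7.49 (without Space sample 1), and Fgf14 from -6.12 (without Space sample 2) to -1.44 (without Space sample 1). Wnt7b ran from 1.49 (without Space sample 3) to 6.31 (without Ground sample 3), Wnt5b from 0.31 (without Ground sample 1) to 6.38 and Wnt9a from 1.39 (without Ground sample 1) to 5.70 (both without Ground sample 2).

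Single sites were then counted by size, without a test. Of the 2782 ligand sites, 7 were over 20 points higher in Space (0.252%, against 0.113% of all commonly covered sites), and 0 were over 20 points lower, against 0.0826% of all sites. Of the 7, 5 were the Fgf21 sites from 142 to 174 bp. Another was 37789 bp downstream of the Bmp10 TSS, with 63.2%, 25% and 56.5% in Space and 27.8%, 6.67% and 7.69% in Ground GS cells at 13 to 23 reads. The last was 174993 bp downstream of the Fgf12 TSS, with 80.95%, 69.2% and 70% in Space and 71.4%, 27.3% and 50% in Ground GS cells. The groups overlapped at both sites. Sites near 0 or full methylation in all samples cannot differ by that much: only 297 ligand sites (10.7%) had a mean level between 5% and 95%, where the share over all sites was 13.5%.

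Most other genes of the 3 pathways were also low near the TSS. From a list of 76 receptors, inhibitors, secretion factors and targets, 67 had a covered site within 1 kb, with a median level of 1.63%, and 1 exceeded 5%. That gene was Fgfr1, an Fgf receptor, with 32.3%, 29.5% and 23.4% in Space and 22.2%, 17.3% and 26.2% in Ground GS cells over 4 sites. The groups of Fgfr1 overlapped. None of the 65 genes tested passed, and 4 had an unadjusted p under 0.05, a share close to the 5.31% of all genes. Those with a higher Space level were Ror1, a Wnt5a receptor, by 1.97 points, Sfrp1, a secreted Wnt antagonist, by 1.11 points, and Msx2, a Bmp target, by 3.17 points. Etv1, an Fgf target, was lower, with a difference of -2.20 points. Groups did not overlap for 6 of the 65 genes, against 9.55% of all genes tested. Besides Ror1, Sfrp1 and Etv1, these were Klb, which encodes beta-Klotho, with 2.42 points, Il17rd, an inhibitor of Fgf signalling, with 0.80 points, and Fzd1, a Wnt receptor, with -0.63 points. Adjusted p-values were 0.912 for Ror1, Sfrp1 and Msx2 and 0.915 for Etv1 (quasi-binomial test across genes).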

How the data were processed

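The 3 Space and 3 Ground samples were RRBS libraries made with a Zymo-Seq kit. The submitters' processing notes name Trim Galore, Bismark 0.24.2, methylKit and mm39, without their roles; conversion rate and duplicate handling were not given in the sources used here. The deposited table of 2268080 CpG sites holds read counts (coverage) and methylated percent per sample and the nearest TSS, and the authors did not pool replicates in it. Coverage multiplied by percent gave the methylated reads (at most 0.000266 from a whole number). A site was kept when each of the 6 samples had 10 or more reads there, and reads were summed per gene and distance class (limits 1 and 5 kb). Space and Ground were compared by a two-sided quasi-binomial test with dispersions moderated in limma 3.58.1 (R 4.3.3). It covered all genes with at least 3 sites and both methylated and unmethylated reads, with Benjamini-Hochberg adjustment at 0.05. The test was also run on simulated data, but the share of changes it recovered is not given here. Summed reads weight sites by coverage, so a shift in coverage between sites can change a gene's level.

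Named genes were Fgf21, the other hormones, culture and niche ligands, the 3 highest levels and 3 largest differences per family in each class among genes with 3 or more sites, and every gene with an unadjusted p under 0.05 or a site over 20 points; genes whose groups did not overlap, and those named for low levels, runs or the pathways, were added after their values were seen. The members and lists were chosen with earlier results of these data known. Alternatives were other coverage minimums (5 and 20 reads), edgeR 4.0.16, limma on log2 ratios with 2 reads added, leaving out samples and a replicate block. Promoter sequences were from RefSeq (GRCm38.p6), matched by symbol; no coordinates were converted. Exact permutation tests and intervals used scipy 1.17.1.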

Additional observations from a re-analysis of the deposited data

How the results depend on the processing

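No gene of any class passed the threshold under any alternative run (0 called each time), including edgeR and limma, and the 46 named differences with a test had adjusted p of at least 0.347 in 562 tested alternatives. The ligand sites differing by over 20 points were 7, but 26 with a minimum of 5 reads (16 higher, 10 lower in Space), 1 with 20 reads, 14 without Ground sample 1, and 9 to 14 when a sample was left out; the Fgf21 sites have no value at 20 reads. Leaving out a sample gave 19.5 to 44.0 points for Fgf21 (19.5 without Space sample 2), and 0.37 to 1.09, -0.76 to 0.03 and 0.69 to 1.15 points for the ligand mean within 1 kb, at 1 to 5 kb and over 5 kb. With 5 reads the ligand mean at 1 to 5 kb was 0.31 points. The mean without Fgf21 and the equal weighting of sites were chosen after seeing the data.

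The labels do not say whether the replicate numbers pair the samples. In the sample descriptions, same-numbered Space and Ground samples carry codes with consecutive numbers, and the labels do not state what these codes mean. In their deviations from the group means, same-numbered samples correlated at 0.014 to 0.075, and differently numbered ones at -0.070 to 0.032. These ranges overlapped and all values were small, so they do not settle whether the samples were paired. With the replicate block, 0 genes were called in each class, with 1052, 398 and 772 at an unadjusted p under 0.05, against 763, 307 and 746 without it. The Fgf21 difference with the block was 29.6 points (exact sign-flip permutation p = 0.25, the smallest 3 pairs allow).

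The direction turned in 23 alternatives for named genes, none of them called; the cause was not tested. When a sample was left out, the difference within 1 kb ran from -1.16 to 0.24 points for Bmp8a, -0.57 to 1.47 for Bmp8b, -1.68 to 0.0036 for Fgf15 and -0.28 to 2.23 for Wnt5a. At 1 to 5 kb it ran from -1.63 to 0.34 for Fgf22, -3.03 to 1.32 for Fgf7, -0.62 to 1.62 for Fgf8 and -0.016 to 0.52 for Fgf9. Over 5 kb it ran from -0.44 to 1.199 for Wnt3a, -0.55 to 0.63 for Wnt5a and -0.67 to 3.25 for Wnt9b. With 5 reads the turned values were 0.14 for Fgf12 and -0.54 for Wnt5a over 5 kb. With 20 reads they were -0.38 for Bmp8b within 1 kb and -1.28 for Wnt5a and -2.05 for Wnt5b over 5 kb. With equal weight per site Bmp8a over 5 kb had -0.91 points.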
